A study of Mus musculus with 16 samples.

Results

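The genes described here encode the Ras, Raf, MEK and ERK cascade, measured in mouse cortex after loss or gain of MEK function in excitatory neurons. They were chosen by name for their place in the cascade (receptor-proximal adaptors, Ras exchange factors, GTPase-activating proteins, Ras proteins, Raf kinases and scaffolds, MEK and ERK kinases, and kinases downstream of ERK). Each gene was represented by its brightest probe set with no second gene symbol. Of 38 listed genes, 34 had such a probe set on both array types, among 18962 genes shared by them. Hras, Mapk3 (ERK1), Rps6ka1 and Rps6ka2 are not analysed here.

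Cortical RNA was hybridised to Affymetrix gene arrays, 1 array per mouse. Values are log2 signals, so that 1 unit stands for a 2-fold difference. Loss-of-function mutants carried Map2k1 loxp/loxp, Map2k2-/- and Neurod6-Cre, and were compared with littermate controls at postnatal day 9 (P9, 2 mutants and 2 controls) and P14 (3 mutants and 3 controls). Gain-of-function mutants carried a Cre-dependent constitutively active Map2k1 (ca-Map2k1) with Neurod6-Cre and were compared with controls at P21 (3 and 3), on another array type. Neurod6 drives Cre in cortical excitatory neurons, so interneurons, glia and vessel cells kept their own Map2k1 in the loss-of-function mice, whereas the Map2k2 deletion was germ-line. Controls were littermates with or without Cre, of mixed genetic background. The labels name sensory cortex and the methods dorsal cortex. The mice came from 2 litters at P9 and 3 at P14, with no mouse assigned to a litter in the sources used here, and p-values measure the spread between these mice. In bulk RNA, fewer cells of a type and less RNA per cell cannot be told apart.

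Receptor tyrosine kinases recruit adaptors and exchange factors that load Ras with GTP, and GTPase-activating proteins return Ras to its inactive form. Active Ras engages Raf kinases, which phosphorylate MEK, and MEK phosphorylates ERK. ERK then phosphorylates other kinases and transcription factors, and in neurons couples growth factor and synaptic signals to gene expression. The question for these genes was whether the transcripts of the cascade itself rise or fall when MEK is lost or made active.

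Median log2 values of the P14 arrays lay between 7.91 and 8.08. Control mouse 2 and mutant mouse 1 stood apart from the other P14 mice: their deviations from their group means had a correlation of 0.761 across genes, and the lower quartile of their values was 6.63 and 6.65 against 6.80 to 6.89 in mice 9 to 12. The labels name no batch, and this split, called the array set below, was read from the same values. P14 results are therefore given also with it as a block and within mice 9 to 12. The p-values of those fits do not take account of that choice. Xist and 3 Y-linked genes marked mutants 9 and 11 at P14 as female and every other mouse in the series as male. Within mice 9 to 12 the mutants were thus female and the controls male, so that fit cannot tell genotype from sex. Array medians were 6.13 to 6.18 at P9 and 6.23 to 6.31 at P21, so levels are compared only within an age.

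In the P14 loss-of-function cortex the median change of the cascade transcripts was near 0, with changes in both directions. A rise in 1 member passed the threshold. Rps6ka5, which encodes the nucleosomal kinase MSK1, was 2.05-fold higher in mutants. This was 1 of 34 members at an adjusted p under 0.05 (limma), where 1.09% of 19938 genes passed. The members' median log2 change was 0.02, as was that of all genes tested, with 18 members above 0 and 16 below. Without regard to sign, the median log2 change at P14 was 0.11 in members and 0.08 in all genes. It was 0.06 and 0.09 at P9, and 0.07 and 0.08 at P21. At P14 an unadjusted p under 0.05 was found in 8 of 34 members, 3 higher and 5 lower, where 8.43% of all genes passed. P14 mutants and controls did not overlap in 7 of 34 members, beside 13.6% of all genes.

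At P9 no member passed an adjusted p under 0.05, where 0.0752% of genes did (15 of 19938). The median log2 change of the members was -0.00, and 17 lay above 0 and 17 below. The members with an unadjusted p under 0.05 numbered 5 (Rasgrf1 and Rps6ka5 higher, Rasgrp1, Rasgrf2 and Rras2 lower), beside 10.5% of all genes.

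In the P21 gain-of-function cortex no gene on the array passed an adjusted p under 0.05 (0% of 22180), and hence no member. The members' median log2 change was -0.01 and that of all genes 0.01. An unadjusted p under 0.05 was found in 6 members, Rasal1, Map2k1 and Rasgrf1 higher and Rps6ka3, Sos1 and Mras lower, where 10.4% of all genes passed. Mutants and controls did not overlap in 7 members, beside 15.8% of all genes.

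The 95% intervals give a range for the change of each transcript in bulk cortical RNA, not within excitatory neurons alone. At P14, 27 of 34 members had a 95% interval that lay wholly within 1.5-fold of no change, as had 87.3% of all genes. The numbers were 29 of 34 at P9, beside 90.9%, and 34 of 34 at P21, beside 92.9%. The members' median half-width was 0.25 at P14, 0.22 at P9 and 0.18 at P21, on the log2 scale. At P14 the 7 members whose interval reached past 1.5-fold were Rasgrf2, Rasgrp1, Rasgrp2, Lamtor3, Rps6ka3, Rps6ka5 and Rps6ka6, and at P9 they were Rasgrf1, Rasgrf2, Rasgrp1, Rps6ka5 and Rps6ka6.

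**Figure D1:**
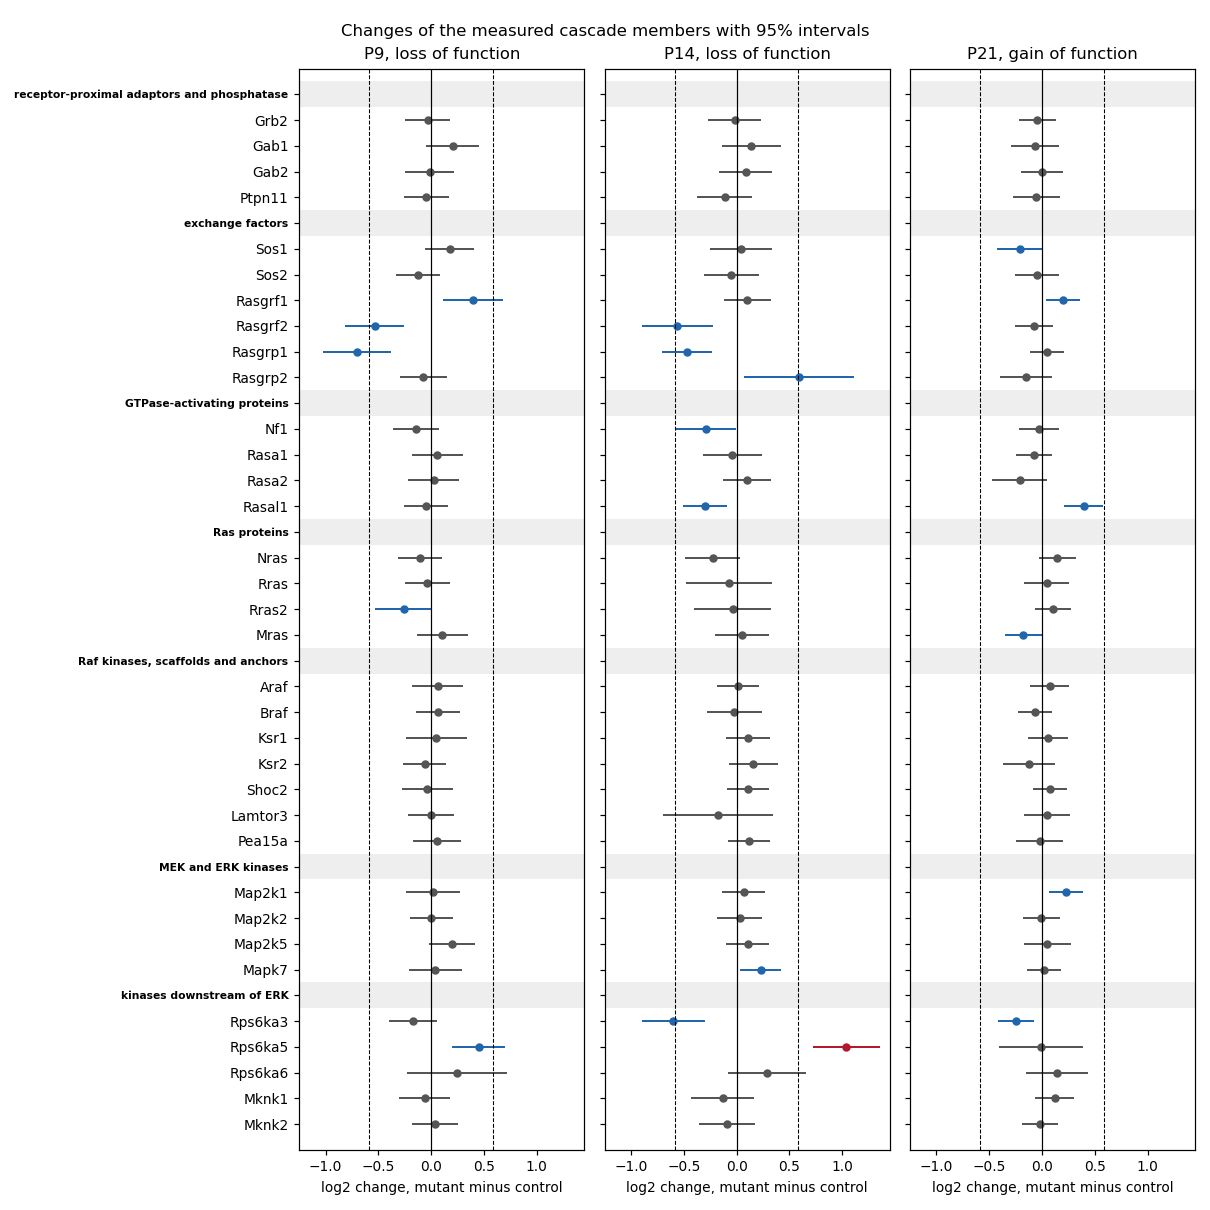
Log2 change (mutant minus control) of each measured member, with its 95% interval, at P9, P14 and P21. Red marks an adjusted p under 0.05, blue an unadjusted p under 0.05 only and grey neither, and dashed lines stand at 1.5-fold. Rps6ka5 at P14 is the only red point, and most grey intervals lie between the dashed lines.

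The probe set values of the targeted genes give no check of genotype here. The floxed Map2k1 allele loses a single exon and the Map2k2 allele carries an insertion, whereas the probe sets summarise whole transcripts. The study did report a fall at single probes of the deleted Map2k1 exon in the P14 mutants. It also reported reduced MAP2K1 protein in loss-of-function cortex. Signals of single probes were not used here. Map2k1 encodes MEK1. At P14 its log2 values were 10.88, 10.78 and 10.74 in controls 2, 10 and 12 and 10.91, 10.79 and 10.89 in mutants 1, 9 and 11. The groups overlapped, and the change was 0.07 ± 0.08 (SE). At P9, controls 2 and 3 had 10.04 each, and mutants 1 and 4 had 10.16 and 9.95, 1 above and 1 below the controls.

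In the gain-of-function mice Map2k1 was 10.11, 10.08 and 10.12 in controls 2, 4 and 5 and 10.33, 10.38 and 10.29 in mutants 1, 3 and 6. All mutants lay above all controls, with a log2 change of 0.23 ± 0.06 (interval 0.08 to 0.38). Its adjusted p was 0.310 in limma, and it did not pass. Whether the probe set detects the ca-Map2k1 transgene is not given in the sources used here.

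Map2k2, which encodes MEK2, overlapped between mutants and controls at each age. Its P14 values were 9.18, 9.01 and 9.04 in controls and 9.14, 9.12 and 9.06 in mutants. At P9 they were 7.98 and 7.95 in controls and 7.96 and 7.99 in mutants. At P21 they were 8.33, 8.20 and 8.20 in controls and 8.19, 8.31 and 8.22 in mutants. The log2 changes were 0.03 at P14, 0.00 at P9 and -0.00 at P21, and every interval lay between -0.20 and 0.23.

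The parallel MEK5 and ERK5 pair, Map2k5 and Mapk7, relays growth factor signals beside the MEK1/2 cascade. Mapk7 at P14 was 9.30, 9.17 and 9.18 in controls and 9.46, 9.44 and 9.45 in mutants, which did not overlap. The log2 change was 0.23 ± 0.08, with an adjusted p of 0.400 (0.0593 with the array set as a block). At P9 it was 0.04 ± 0.10 and at P21 0.02 ± 0.07. Map2k5 gave log2 changes of 0.10 at P14, 0.20 at P9 and 0.05 at P21, none at an unadjusted p under 0.05.

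Among kinases that ERK activates, the largest changes in the P14 list ran in opposite directions. Rps6ka5 encodes MSK1, which phosphorylates histone H3 and the transcription factor CREB. Its P14 log2 values were 8.72, 8.96 and 8.83 in controls 2, 10 and 12 and 9.64, 9.89 and 10.10 in mutants 1, 9 and 11. Every mutant lay above every control by more than the spread within either group. The change was 1.04 ± 0.13 (SE, interval 0.73 to 1.34, adjusted p = 0.0180 in limma). The study reported less phosphorylation of the RSK and MSK proteins in loss-of-function cortex, which RNA levels do not measure.

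Rps6ka5 was also higher in the P9 mutants, 8.43 and 8.23 against 7.88 and 7.89 in controls, a log2 change of 0.45 ± 0.10 (1.37-fold) with an adjusted p of 0.230. In the P21 gain-of-function mice the groups overlapped, with 7.77, 7.54 and 7.36 in controls and 7.75, 7.71 and 7.19 in mutants, a change of -0.01 ± 0.17. The P14 change exceeded the P9 change by 0.59 (interval 0.17 to 1.01), with an adjusted p of 1.00 over all genes. No gene passed that test of the difference between ages (0% of 19938). At an unadjusted p under 0.05, 4.26% of genes and 2 members did, Rps6ka5 and Rps6ka3.

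The P14 call of Rps6ka5 held with the array set as a block (adjusted p = 4.68e-04). Within mice 9 to 12, where genotype and sex coincide, the change was 1.10 (adjusted p = 0.00254). The P14 call was lost without control 10 (adjusted p = 0.0707), mutant 11 (0.0870), control 12 (0.0916) or mutant 9 (0.100). Log2 changes ran from 0.93 to 1.15 over all mice left out. With sex as a covariate the change rests on the male mutant 1 alone and was 0.80 (adjusted p = 0.127).

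The mean of the striatal markers was also higher in the P14 mutants. Of 6 listed, 4 were measured, and their mean log2 level was 8.51, 8.61 and 8.64 in controls 2, 10 and 12 and 8.69, 9.20 and 8.88 in mutants 1, 9 and 11. The mutants all lay above the controls. Among mutants this mean was highest in mouse 9 and Rps6ka5 in mouse 11, and mouse 1 was lowest in each. Among controls mouse 2 was lowest in each. Drd1, Rgs9 and Ppp1r1b were higher by 0.36, 0.47 and 0.44, none past the threshold (limma adjusted p 0.219 to 0.339) and all past it with the block, while Drd2 overlapped between groups. At P9 the list's levels overlapped, 7.12 to 7.26 in controls and 7.25 to 7.30 in mutants. At that age Drd1 was higher by 0.30 and Drd2 lower, by -0.32, each without overlap. The part of tissue makeup in the Rps6ka5 difference was not tested.

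Rps6ka3 encodes RSK2, a kinase of ribosomal protein S6 and transcription factors whose gene is X-linked. Its P14 values were 9.62, 9.63 and 9.69 in controls and 9.23, 8.78 and 9.13 in mutants. The mutants all lay lower, by -0.60 ± 0.13 (interval -0.89 to -0.31), with an adjusted p of 0.0955, and 0.0150 with the block. Its lowest value was in a female mutant and its highest mutant value in the male. With sex as a covariate, which leaves the estimate to mutant 1, the change was -0.42 (adjusted p = 0.499).

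Rps6ka3 differed less at the other ages. P9 controls had 8.77 and 8.64 and mutants 8.56 and 8.50, a log2 change of -0.17 ± 0.09. At P21, controls had 9.69, 9.55 and 9.62 and gain-of-function mutants 9.34, 9.38 and 9.41, again without overlap, a change of -0.25 ± 0.07 (adjusted p = 0.296). Its change was thus below 0 in the loss-of-function and the gain-of-function mice.

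Rps6ka6 (RSK4) overlapped between groups at each age. At P14 controls had 7.43, 7.29 and 6.88 and mutants 7.65, 7.39 and 7.42, a change of 0.29 ± 0.15. At P9 controls had 7.12 and 7.24 and mutants 7.72 and 7.14, and at P21 controls had 5.83, 5.71 and 5.65 and mutants 6.09, 5.90 and 5.62. Its P14 mean lay under the 30th percentile of all genes on the arrays. Mknk1 and Mknk2, which phosphorylate the translation factor eIF4E, ranged from -0.13 to 0.12 over the 3 ages.

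Among the 6 exchange factors, which activate Ras or its relatives, those of the calcium-regulated families held the largest changes at P9 and P14. Rasgrp1 responds to diacylglycerol and calcium. Its P14 values were 12.32, 12.32 and 12.37 in controls and 11.73, 11.84 and 12.02 in mutants, with no overlap. The log2 change was -0.47 ± 0.10 (adjusted p = 0.0882, and 0.00837 with the block). P9 controls had 10.45 and 10.24 and mutants 9.78 and 9.50, a change of -0.70 ± 0.13 (adjusted p = 0.176), the lowest of all members at that age.

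In the P21 gain-of-function mice Rasgrp1 was 11.93, 11.98 and 12.04 in controls and 12.05, 12.01 and 12.03 in mutants. These overlapped, with a change of 0.05 ± 0.07 (interval -0.10 to 0.20).

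Rasgrf2 encodes an exchange factor that calmodulin binds. Its P14 values were 10.16, 10.25 and 10.57 in controls and 9.68, 9.65 and 9.97 in mutants. All mutants lay below all controls, by -0.56 ± 0.14 (adjusted p = 0.157, and 0.0233 with the block). At P9 controls had 8.92 and 8.79 and mutants 8.21 and 8.44, a change of -0.53 ± 0.11 (adjusted p = 0.209). At P21 the groups overlapped, 9.81, 9.71 and 9.79 in controls and 9.61, 9.77 and 9.71 in mutants. Trended and robust moderation brought Rasgrp1 (adjusted p = 0.0289) and Rasgrf2 (0.0479) past the threshold at P9.

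Rasgrf1, its close relative, differed in the other direction. P9 controls had 8.02 and 8.21 and mutants 8.60 and 8.42, a log2 change of 0.40 ± 0.11 (adjusted p = 0.330). At P14 controls had 10.69, 10.68 and 10.76 and mutants 10.68, 10.84 and 10.91, which overlapped, a change of 0.10 ± 0.09. At P21 controls had 10.76, 10.84 and 10.85 and mutants 11.03, 11.05 and 10.97, all above the controls, a change of 0.20 ± 0.07 (adjusted p = 0.364).

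Rasgrp2 acts mainly on Rap1, a relative of Ras. At P14 it had the second highest change, 0.59 ± 0.22, but its controls were far apart: 9.15 in mouse 2 and 8.37 and 8.34 in mice 10 and 12, against 9.40, 9.18 and 9.05 in mutants. Control 2 overlapped the mutants. The adjusted p was 0.462, with 0.0161 under the block. Within mice 9 to 12, where genotype and sex coincide, it was 0.00473 (change 0.76). The mean of the striatal markers, given above, was higher in the same P14 mutants, and its part was not tested. At P9 controls had 9.34 and 9.24 and mutants 9.25 and 9.17. At P21 controls had 6.81, 6.90 and 6.86 and mutants 6.56, 6.92 and 6.64, both overlapping.

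Sos1 and Sos2 link receptor adaptors to Ras in most cells. Sos1 at P21 was 8.72, 8.62 and 8.60 in controls and 8.47, 8.57 and 8.28 in mutants, a change of -0.21 ± 0.09 (adjusted p = 0.476). In the loss-of-function model it was 9.14, 9.11 and 9.10 in P14 controls and 9.38, 8.93 and 9.14 in mutants, on either side of the controls. P9 controls had 8.09 and 8.13 and mutants 8.36 and 8.22. Sos2 ranged from -0.12 to -0.05 over the 3 ages.

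Promoter sequence is shown for Rps6ka5, the member that rose, and for Rasgrp1 and Rasgrf2, which had unadjusted p under 0.05 and negative changes at both loss-of-function ages. The RefSeq windows used here ran from 250 bases before to 50 after a transcript start on build GRCm38.p6. They covered 30 of the 34 measured members (40 windows). The windows are chr12:100725071-100725370 for Rps6ka5, chr2:117342828-117343127 for Rasgrp1 and chr13:92131779-92132078 for Rasgrf2, each on the minus strand, written 5′ to 3′ with matches to the CRE half-site TGACG on either strand in capitals.
Rps6ka5: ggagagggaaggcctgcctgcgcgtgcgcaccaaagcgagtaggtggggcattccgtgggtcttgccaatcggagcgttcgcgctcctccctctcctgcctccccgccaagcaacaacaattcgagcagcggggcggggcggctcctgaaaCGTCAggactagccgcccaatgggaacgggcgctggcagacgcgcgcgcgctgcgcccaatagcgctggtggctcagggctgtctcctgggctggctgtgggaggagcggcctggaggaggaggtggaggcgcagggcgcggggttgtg
Rasgrp1: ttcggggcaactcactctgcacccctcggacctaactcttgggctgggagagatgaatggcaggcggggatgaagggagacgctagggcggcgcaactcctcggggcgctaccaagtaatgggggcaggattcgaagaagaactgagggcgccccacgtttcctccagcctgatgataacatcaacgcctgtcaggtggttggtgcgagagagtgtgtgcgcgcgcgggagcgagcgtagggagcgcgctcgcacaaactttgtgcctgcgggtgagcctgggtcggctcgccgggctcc
Rasgrf2: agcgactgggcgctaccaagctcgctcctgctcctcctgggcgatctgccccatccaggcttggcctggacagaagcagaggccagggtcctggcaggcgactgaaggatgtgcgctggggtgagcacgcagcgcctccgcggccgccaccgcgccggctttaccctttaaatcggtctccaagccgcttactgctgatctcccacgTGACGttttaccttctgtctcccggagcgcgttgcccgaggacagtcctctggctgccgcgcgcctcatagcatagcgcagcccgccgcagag

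The motifs searched are those of factors downstream of ERK and its kinases. The half-site TGACG, part of the CREB element, matched once in Rps6ka5 and once in Rasgrf2 and not in Rasgrp1, and is held by 20.8% of all 32851 windows of this length. The full CRE TGACGTCA, which contains the half-site, is held by 1.79% of windows, and among members by Braf and Ptpn11. None of the 3 windows shown matched it, the ETS motif CCGGAA (14.9% of windows), the AP-1 motif TGANTCA (7.81%) or the EGR1 motif GCGTGGGCG (0.612%). Both strands were searched. Of the 40 windows of the 30 members, the half-site was found in 10, the ETS motif in 9, AP-1 in 1 and EGR1 in 0. A match describes letters in a window and not binding.

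**Figure D2:**
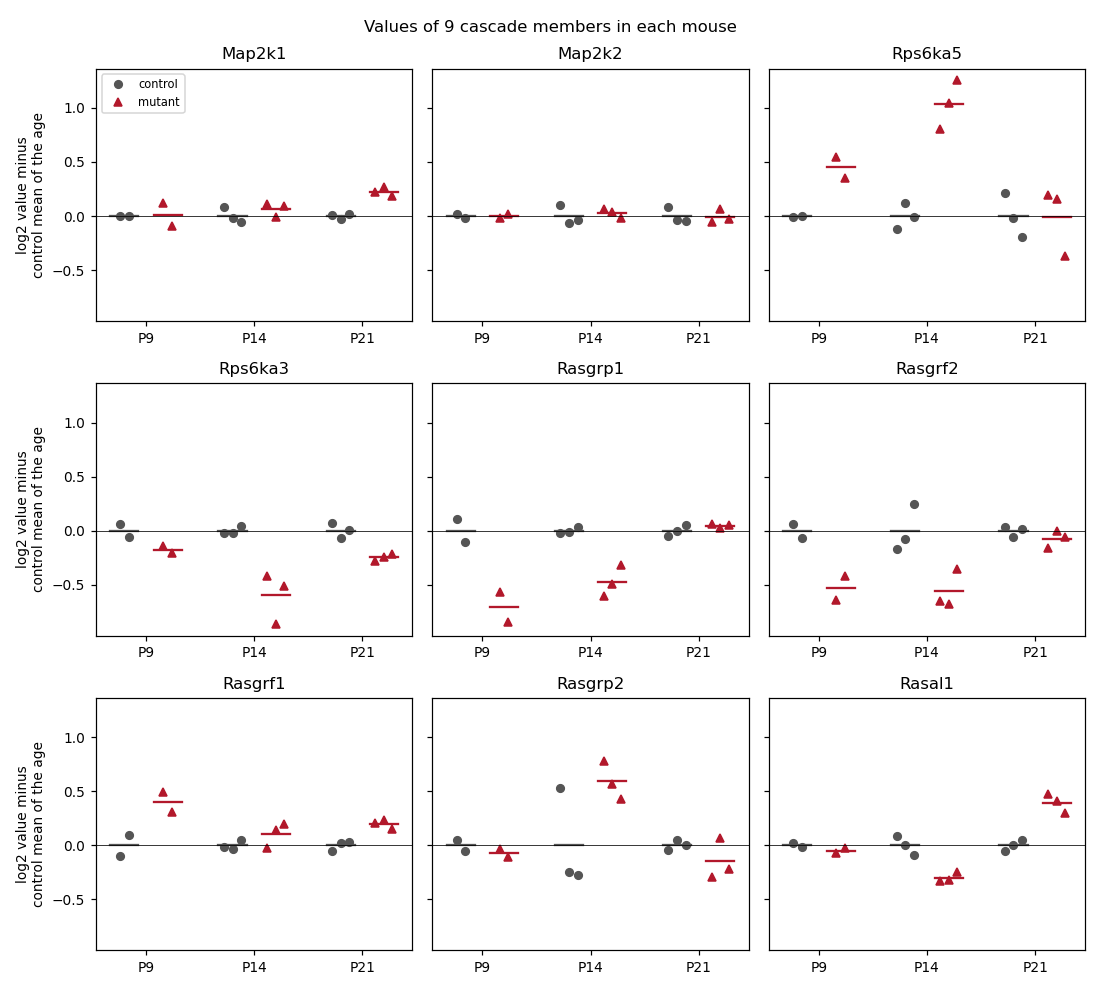
Log2 value of 9 members in each mouse, minus the mean of the controls of the same age, at P9, P14 (loss of function) and P21 (gain of function). Circles are controls, triangles mutants, and lines group means. Rps6ka5 mutants lie above all controls at P9 and P14, Rasgrp1 and Rasgrf2 mutants lie below, and Map2k2 mutants and controls overlap at each age.

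GTPase-activating proteins switch Ras off. Rasal1, which is recruited to the membrane by calcium, had differences of opposite direction in the P14 loss-of-function and P21 gain-of-function mice. Its P14 values were 9.80, 9.72 and 9.62 in controls and 9.38, 9.39 and 9.46 in mutants, with no overlap and a change of -0.30 ± 0.08 (adjusted p = 0.224, and 0.0364 with the block). At P21 it was 8.35, 8.41 and 8.46 in controls and 8.88, 8.82 and 8.70 in mutants, again with no overlap, a change of 0.39 ± 0.08 (interval 0.22 to 0.57, adjusted p = 0.212). That was the highest value of all members at P21. P9 controls had 8.76 and 8.72 and mutants 8.67 and 8.71, a change of -0.05 ± 0.08. The 2 models were measured on different array types and ages, and the difference between them was not tested.

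Nf1 encodes neurofibromin, mutated in neurofibromatosis. At P14 it was 10.76, 11.12 and 11.04 in controls and 10.56, 10.76 and 10.71 in mutants, in which control 2 equalled the highest mutant to 2 decimals. The change was -0.29 ± 0.12 (adjusted p = 0.533, and 0.0348 with the block). P9 controls had 9.45 and 9.40 and mutants 9.24 and 9.32, a change of -0.14 ± 0.08, and at P21 the change was -0.03 ± 0.08. Rasa2 at P21 was 8.76, 8.44 and 8.43 in controls and 8.45, 8.33 and 8.22 in mutants, a change of -0.21 ± 0.11, and control 2 alone stood above the rest. Its P14 and P9 changes were 0.10 and 0.02. Rasa1 ranged from -0.07 to 0.06.

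No Ras protein passed the adjusted threshold at any age. Rras2 (TC21) at P9 was 9.90 and 9.69 in controls and 9.58 and 9.48 in mutants, a change of -0.26 ± 0.10 (adjusted p = 0.466). At P14 its groups overlapped, 10.10, 9.80 and 9.88 in controls and 10.20, 9.68 and 9.78 in mutants, and at P21 the change was 0.10 ± 0.07. Mras at P21 was 10.41, 10.26 and 10.31 in controls and 10.11, 10.20 and 10.15 in mutants, below every control, a change of -0.18 ± 0.07 (adjusted p = 0.449). Its changes at P14 and P9 were 0.05 and 0.11. Nras had changes of -0.23, -0.10 and 0.15 at P14, P9 and P21, and Rras ranged from -0.07 to 0.04.

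Of the 7 Raf kinases and scaffolds none had an unadjusted p under 0.05 at any age. Braf, a Raf kinase prominent in neurons, was 10.64, 10.91 and 10.91 in P14 controls and 10.70, 10.81 and 10.90 in mutants, which overlapped. P9 controls had 9.22 and 9.18 and mutants 9.25 and 9.27, and P21 controls had 11.12, 11.09 and 11.02 and mutants 10.98, 11.04 and 10.99. Its log2 changes were -0.02 at P14, 0.07 at P9 and -0.07 at P21, each with an interval inside 1.5-fold.

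Changes in Araf, the scaffolds Ksr1 and Ksr2, Shoc2 (which helps to activate Raf) and Pea15a (which holds ERK in the cytoplasm) lay between -0.12 and 0.16 over the 3 ages. Lamtor3, the MEK partner MP1, had the widest P14 interval of the group, -0.69 to 0.34, and controls and mutants each split by array set: mouse 2 had 11.20 against 10.56 and 10.57 in the other controls, and mouse 1 had 10.97 against 10.43 and 10.39 in the other mutants. Its second probe set gave -0.21 at P14 beside -0.18 for the one used.

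The receptor-proximal group lay near 0. Grb2, the adaptor that carries Sos to receptors, the docking proteins Gab1 and Gab2, and Ptpn11, which encodes the phosphatase SHP2, ranged from -0.11 to 0.14 at P14, from -0.05 to 0.20 at P9 and from -0.06 to 0.00 at P21. None had an unadjusted p under 0.05, and all 4 intervals lay within 1.5-fold at each age.

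With the array set as a block, 7 members passed an adjusted p under 0.05 at P14, where 6.69% of all genes passed. They were Rps6ka5 and Rasgrp2, which were higher, and Rasgrp1, Rps6ka3, Rasgrf2, Nf1 and Rasal1, which were lower. The block leaves each estimate unchanged, because mutants and controls were balanced between the sets. Within mice 9 to 12 alone, where the mutants were female and the controls male, 4.94% of all genes and 4 members passed. They were Rps6ka5, Rasgrp2, Rps6ka3 (-0.70, adjusted p = 0.0253) and Rasgrp1 (-0.42, adjusted p = 0.0439). Mutant 1 minus control 2 gave the same direction in each, at 0.92, 0.25, -0.39 and -0.58.

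Different mice were used at P9 and at P14, and no controls were shared. Of 34 members, 27 (79.4%) had a change of the same sign at both ages, beside 56.3% of all genes. Across members the changes at P9 and P14 had a Pearson r of 0.694 (0.632 without Rps6ka5), and across all genes 0.412. Genes measured on the same arrays are not independent, and these values are descriptions. The members with an unadjusted p under 0.05 at both ages were Rps6ka5, Rasgrp1 and Rasgrf2.

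**Figure D3:**
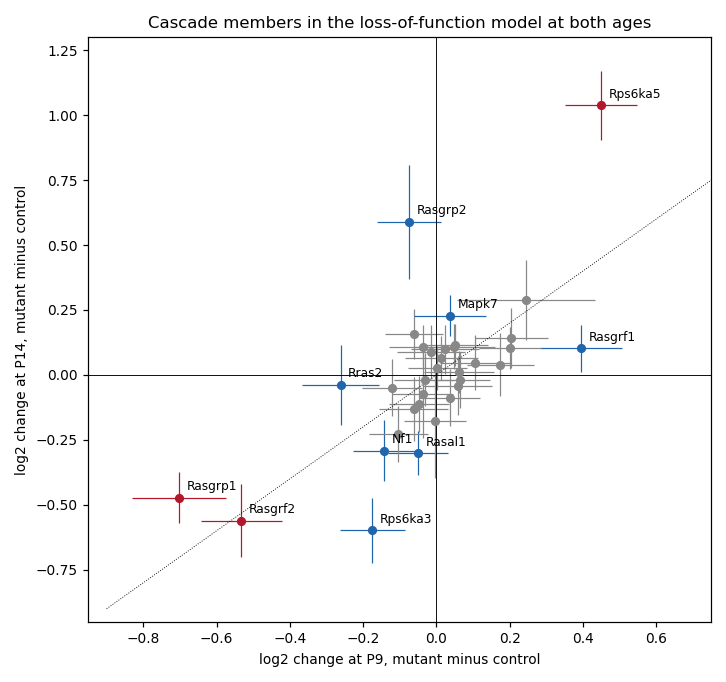
Log2 change (mutant minus control) of each member at P9 (horizontal) and P14 (vertical) in the loss-of-function model, with standard errors. Red marks an unadjusted p under 0.05 at both ages, blue at 1 age and grey at neither, and the dotted line marks equal change. Rps6ka5, Rasgrp1 and Rasgrf2 lie away from the origin at both ages, and Rasgrp2 at P14 only.

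Related gene lists set the members' values in context. Of 40 other genes of Ras and ERK signaling, which include the remaining GTPase-activating proteins, adaptors and scaffolds, 1 fell at P14 and at P9: Shc3, a neuronal adaptor, by -1.70 ± 0.08 (adjusted p = 9.17e-04) and -1.69 ± 0.11 (adjusted p = 0.0315). The list's median log2 change was -0.04 at P14 and -0.01 at P9. At P21 none of 36 passed. Of 17 receptor tyrosine kinases none passed at any age in these fits. Among 25 JNK and p38 cascade genes, Map3k9 fell at P14 by -0.50 (adjusted p = 0.0419) and none passed at P9 or P21. Of 20 PI3K, AKT and mTOR genes none passed at P9 or P14, nor of 19 at P21. With the array set as a block, P14 calls were 5 lower of the 40, 1 lower of the receptors (Met, -0.94, adjusted p = 2.07e-04), 1 higher and 2 lower of the JNK and p38 genes, and 1 lower of the PI3K genes (Rheb, -0.59, adjusted p = 0.0172).

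Of 24 genes that ERK switches on, including its own feedback inhibitors, 12 fell at P14 and none rose (17 and none with the block), with a median of -0.66 beside 0.02 for the members and for all genes. The 4 with the lowest p were Arc (-1.97), Nr4a1 (-1.71), Spred2 (-1.34) and Etv5 (-1.06). At P9 the list's median was -0.39 and 1 fell, Spred2 (-1.12, adjusted p = 0.0468). In the P21 gain-of-function mice none of the 24 passed and the median was 0.08. Several of these genes were named by the study from these samples, so their direction is not independent evidence.

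**Figure D4:**
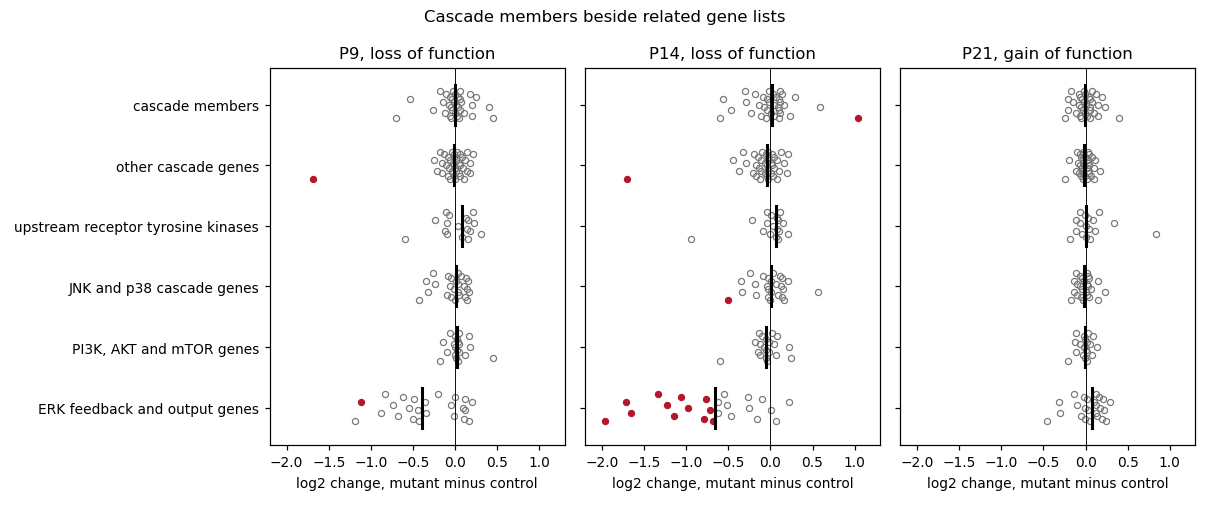
Log2 change (mutant minus control) of each gene in the cascade and in 5 related lists at P9, P14 and P21. Filled red points passed an adjusted p under 0.05, open points did not, and black bars are list medians. At P14, 12 of the 24 ERK feedback and output genes are filled and lie below 0, beside 1 cascade member.

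Markers of cell types were read on the same arrays. At P14 the mean log2 level of 7 measured excitatory neuron markers was 11.03 to 11.18 in controls and 10.81 to 10.91 in mutants. Of the 7, 4 were lower and 3 higher, with a median change of -0.06 and a highest of 0.39. The lowest were Nrn1 (-0.93), which alone was called, and Slc17a6 (-0.79). Nrn1 is also a gene whose expression the study linked to ERK/MAPK signaling. At P9 the mean level was 9.83 to 9.87 in controls and 9.65 to 9.68 in mutants. There 3 were lower, among them Slc17a6 (-0.94) and Nrn1 (-0.61), and 4 higher, with a median change of 0.05. Interneuron markers did not separate the groups, at 10.14 to 10.17 and 10.16 to 10.20 at P14. The level of 6 endothelial and pericyte markers was 8.92 to 9.35 in P14 controls and 8.54 to 8.99 in mutants. At P21, 7 oligodendrocyte markers had a mean of 9.88 to 10.27 in controls and 9.61 to 9.91 in mutants, and 5 of the 7 were lower at an unadjusted p under 0.05. At P9, 7 astrocyte markers had a mean of 9.67 to 9.70 in controls and 9.84 to 9.86 in mutants, with 3 higher at an unadjusted p under 0.05, and 7 microglia markers 7.37 to 7.44 and 7.46 to 7.49. At that age 5 oligodendrocyte precursor markers had a mean of 8.80 to 8.82 in controls and 8.83 to 8.92 in mutants. Excitatory neuron markers at P21 were 10.31 to 10.38 in controls and 10.28 to 10.30 in mutants. The part of these shifts in the members' values was not tested.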

How the data were processed

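Cortical RNA of 16 mice was measured on Affymetrix gene arrays. Deposited log2 values were computed by the authors with RMA (background adjustment, quantile normalization, median polish). Partek 6 is named in the submitters' processing notes. The genome build is not given in the sources used here. Arrays have no read depth, and their number limits the precision. One table of 35557 probe sets holds P9 and P14, and another of 41345 holds P21.

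Probe sets with 1 gene symbol were kept and the brightest over a table's arrays represented each gene (19938 and 22180 genes). Each age was fitted alone, mutant minus control, in limma 3.58.1 (R 4.3.3; lmFit, eBayes), with two-sided tests adjusted by Benjamini-Hochberg over every gene. Adjusted p-values, standard errors and 95% intervals are from this fit unless another is named. The P14 minus P9 difference was a contrast in 1 fit of those groups. The code was tested on simulated data.

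The members and lists were chosen with earlier results of these data known. Values per mouse were given for Map2k1, Map2k2, Braf, every member with an unadjusted p under 0.05, and the 3 highest and 3 lowest at each age. Alternatives were quantile normalization, median centring, a filter at the 30th percentile, no moderation, trended and robust moderation, the mean of probe sets, all groups in 1 fit, each mouse left out and, at P14, the array set as a block, mice 9 to 12 alone and sex as a covariate.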

Additional observations from a re-analysis of the deposited data

How the results depend on the processing

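The count of members past an adjusted p under 0.05 at P14, 1 in the reported fit, was 0 without moderation, 0 with sex as a covariate, 2 with all groups in 1 fit, 7 with the array set as a block and 4 within mice 9 to 12, and 0 to 2 with each mouse left out. Over all genes the count, 217 in the reported fit, moved in the same settings to 18, 38, 480, 1333, 984 and 27 to 304. Without moderation Rps6ka5 had an adjusted p of 0.145. At P9 the count was 2 with trended and robust moderation (Rasgrp1 and Rasgrf2, as the count over all genes went from 15 to 235) and 0 otherwise, and at P21 it was 0 in every alternative. No member passed the test of the difference between P9 and P14 in any alternative. Numbers of members with an interval within 1.5-fold stayed within 1.5 times the reported ones.

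The members' median log2 change at P14 was 0.0951 with sex as a covariate, a fit in which mutant 1 alone carries the comparison. At P9 it was -0.0250 after median centring and ranged from -0.0486 to 0.0178 with each mouse left out.

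Changes near 0 switched sign. Map2k1 at P9 was -0.00477 after quantile normalization and -0.0115 after median centring, and -0.0907 to 0.117 with each mouse left out. Map2k2 at P9 was -0.0263 and -0.0220 under those settings and -0.0136 to 0.0192 with each mouse left out, at P14 -0.00666 to 0.0799 and at P21 -0.0407 to 0.0364. No member with an unadjusted p under 0.05 switched sign in any alternative. The filter on dim genes removed Rps6ka6 at P14.

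No paired analysis was possible because the labels give mutants and controls of an age no shared number and the sources used here assign no mouse to a litter. Sex could not be fitted at P9 and P21, where all mice were male. With 2 or 3 mice a group, no group was large enough to test for outlying mice. The number of arrays limits what could be called: the median 95% interval of a member spanned 0.25 to either side at P14, on the log2 scale.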
